A study of Mus musculus with 54 samples.

Results

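Angiopoietin-like proteins and lipases form one system that sets where plasma triglycerides are broken down, and 6 of its genes were followed in the liver of mice given the plasticizer di-isononyl phthalate (DINP). The genes were Angptl4, Angptl6, Angptl8, Lpl, Lipc and Lipg. They were taken by name, as the table entries with exactly these symbols, 6 of 20143 symbols in all. The rule uses the name alone, but the names were chosen with earlier results of these data known. Liver RNA came from 54 male wildtype C57BL/6J mice, which from the age of 8 weeks were fed a high-fat diet and for 20 weeks ate 1 gelatin pellet a day. The pellet carried DINP at a low dose (1.5 mg/kg bw/d, n = 13), a middle dose (15 mg/kg bw/d, n = 13) or a high dose (150 mg/kg bw/d, n = 14), or no DINP in the control group (n = 14). All mice were single housed and on the same diet, so the data hold no lean group, no females and no unexposed group without pellets.

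The lipases are secreted enzymes. Lipoprotein lipase (LPL) hydrolyses the triglycerides of chylomicrons and very low density lipoproteins at the capillary wall, mainly in muscle, heart and adipose tissue. In the adult liver it is better known from macrophages than from hepatocytes. Hepatic lipase (gene Lipc) is made by hepatocytes and acts on remnant particles and high density lipoproteins, and endothelial lipase (gene Lipg) acts mainly on the phospholipids of high density lipoproteins. Angiopoietin-like proteins are secreted regulators. ANGPTL4 is induced by fasting and by fatty acids, largely through peroxisome proliferator-activated receptors (PPARs), and it inhibits LPL and, locally, hepatic lipase. ANGPTL8 is induced by feeding and takes part in the inhibition of LPL in muscle and heart after a meal, whereas ANGPTL6 is a growth factor-like protein of the liver.

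On GRCm38, with GENCODE M21 annotation, all 6 are protein-coding. Angptl4 lies on the minus strand at chr17:33773750-33781830 and Lpl on the plus strand at chr8:68880491-68907448. Chromosome 9 carries Angptl6 (chr9:20873808-20879727, minus), Angptl8 (chr9:21835510-21837347, plus) and Lipc (chr9:70798128-70952226, minus). Angptl8 lies within Dock6, which runs on the opposite strand, and Angptl6 and Lipc also overlap other annotated genes. The strand setting of the counting is not given in the sources used here, so that reads of such partners could be assigned to either gene. Dock6 had a mean value of 5.25 in control mice, against 101 for Angptl8.

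The longest annotated coding sequences hold 410 codons for Angptl4, 457 for Angptl6 and only 198 for Angptl8, which lacks the fibrinogen-like domain of its relatives. Those of the lipases are closer in length, with 474 codons for Lpl, 510 for Lipc and 500 for Lipg. LPL and hepatic lipase, the pair of enzymes that ANGPTL4 is known to inhibit, share the fold of the catalytic site. To show how alike they are, 51 coding bases around the codon of the active-site serine (in capitals, residue 159 of the LPL precursor and 169 of the hepatic lipase precursor) are given 5′ to 3′ on the coding strand, from GENCODE M21 transcripts. The Lpl window is chr8:68894648-68894698 and the Lipc window chr9:70818895-70818945, each within 1 exon.
Lpl: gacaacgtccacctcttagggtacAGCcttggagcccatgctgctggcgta
Lipc: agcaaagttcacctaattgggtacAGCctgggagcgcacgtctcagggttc
The windows have the same base at 34 of 51 positions (66.7%), and the serine codon is the same in both.

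The libraries were QuantSeq libraries, which read the 3′ ends of polyadenylated transcripts, and each deposited value was read as a rounded TPM value (transcripts per 1000000) divided by a size factor of its mouse. The table is named as TPM, and undoing 1 step per mouse gives whole numbers that sum to 948342 to 980641 in every mouse, but the scaling is not stated in the sources used here. The values are called normalised values. Because 3′ reads do not grow with transcript length, levels of different genes are only roughly comparable. Read so, the values do not keep the sequencing depth, so the error of a single value is unknown. The samples carried the markers of liver, and the summed value of 9 hepatocyte markers was 21204 to 41036 in the 54 mice.

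3 mice stood apart in Lpl, as was seen from the values: replicates 8 and 9 of the control group and replicate 7 of the middle-dose group. Their Lpl values were 69.6, 47.7 and 63.8, while the other 51 mice lay between 4.05 and 18.8. These mice also had the 3 lowest size scalings of the table (0.764, 0.883 and 0.886). Each comparison of the 6 genes with control is given with and without them, and only their own values are set beside those of the others.

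Over all 54 mice, Angptl8 had the highest mean level (105 ± 63.8, SD, n = 54), followed by Lipc (57.3 ± 11.9). Lpl (11.7 ± 12.4), Angptl4 (11.5 ± 6.61) and Angptl6 (9.55 ± 1.96) followed within their spread of each other, and Lipg was lowest (3.27 ± 1.33). The longest transcripts run from 865 bases for Angptl8 to 4115 for Lpl, with 1920 for Lipc. A TPM value is divided by transcript length, while 3′ reads do not grow with it. The order of the genes by level, here and below, may thus follow length in part, which was not tested. The 6 genes varied between mice to very different degrees. Angptl8 spanned a range of 12.1-fold from its lowest to its highest mouse and Lpl 17.2-fold, whereas Angptl6 and Lipc spanned 2.75-fold and 3.04-fold. All 6 genes passed the filter on low values (a mean of at least 1) and were tested among 11431 entries.

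**Figure D1:**
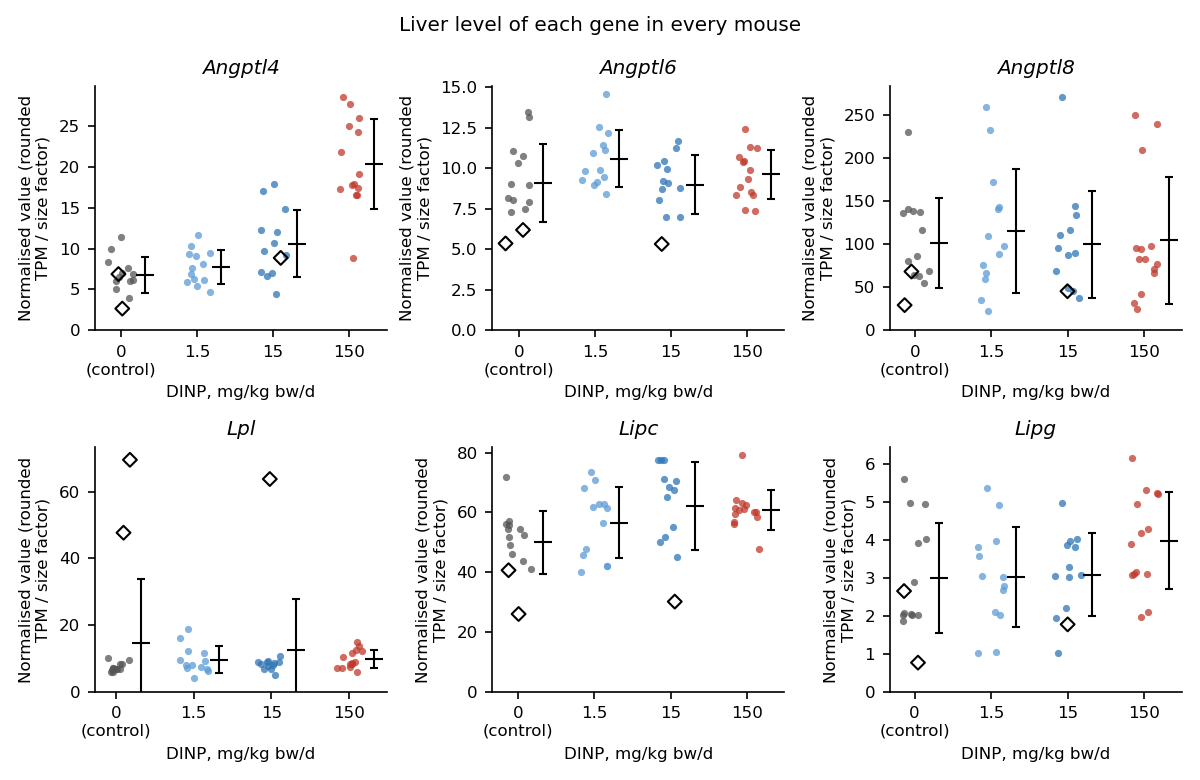
Normalised value of each gene (vertical axis, linear, from 0) by dose of DINP in mg/kg bw/d. Each point is 1 mouse, bars are mean and SD (cut at 0 for Lpl), and open diamonds are the 3 mice apart in Lpl. Angptl4 rises with dose to a mean of 20.4 at 150 mg/kg bw/d, and in the Lpl panel the diamonds lie far above all other mice.

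Angptl4 was the 1 gene of the 6 that was called, and it was higher with DINP. In control mice its value ranged from 2.65 to 11.4 (median 6.72), and at the low dose from 4.65 to 11.6 (median 7.63). At the middle dose it ranged from 4.42 to 17.9 (median 9.73), and at the high dose from 8.86 to 28.6 (median 18.5). At the highest dose, 13 of 14 mice were above every control mouse, and the 1 exception, at 8.86, was above the control median. In the middle-dose group 5 of 13 mice were above every control mouse and the others overlapped with the control range, and at the low dose this was the case for 1 of 13.

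The mean Angptl4 level was 6.76 ± 2.24 in control mice and 7.75 ± 2.11, 10.6 ± 4.11 and 20.4 ± 5.47 at the low, middle and high doses (SD, n = 14, 13, 13 and 14), so that the mean at the highest dose was 3.01 times that of control. On the log2(value + 1) scale, which understates changes of low genes, the log2 fold change (log2FC) at the high dose was 1.47 (SE 0.162, adjusted p = 9.84e-09, limma with Benjamini-Hochberg adjustment over all 11431 entries). Here 1.49% of all entries were called higher and 0.682% lower, a call being an adjusted p under 0.05. Without the 3 mice apart it was 1.39 and still called. By p-value Angptl4 was number 2 of all entries at this dose, and by log2FC number 21. As the samples are whole liver, more cells with the transcript and more transcript per cell cannot be told apart. Of 7 markers of adipocytes, which also express Angptl4, 3 passed the filter and 1, Cfd, was called higher at this dose (log2FC 2.07, adjusted p = 0.00335). Of these 3, 2 had a log2FC above 0 at this dose and 1 did not. The sum of the 7 ranged from 14.2 to 59.3 in the 12 control mice without those apart (median 26.5) and from 22.3 to 128 at the high dose (median 40.6), while the defining markers Adipoq, Retn, Lep and Plin1 had a median of 0 over all mice.

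At the middle dose the log2FC of Angptl4 was 0.55 (SE 0.165, adjusted p = 0.0166), in a comparison in which 7.57% of all entries were called higher and 6.61% lower. It was 0.49 without the 3 mice apart, with an adjusted p of 0.05004, just over the threshold, and in a Wilcoxon rank-sum test over all entries the adjusted p was 0.0784. At the low dose it was 0.19 (SE 0.165, adjusted p = 0.686) and 0.12 without the 3 mice, with 0.674% of entries called higher and 0.525% lower.

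Between doses, Angptl4 was higher at the high than at the middle dose (log2FC 0.92, SE 0.165, adjusted p = 5.59e-05) and higher at the high than at the low dose (1.28, SE 0.165, adjusted p = 7.06e-07). In these contrasts 20.0% and 4.61% of all entries were called in either direction. The difference between the middle and low doses was 0.36 (SE 0.168, 95% confidence interval 0.02 to 0.70), where 21.4% of entries were called. Its interval leaves out 0, but it was not called over all entries (limma, adjusted p = 0.118), except without replicate 8 of the middle-dose group (0.44, adjusted p = 0.0484). The order of the 4 group means was thus control, low, middle and high dose. Of the neighbours in it, middle and high differed past the threshold, while for control and low the interval of the difference ran from -0.14 to 0.52.

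**Figure D2:**
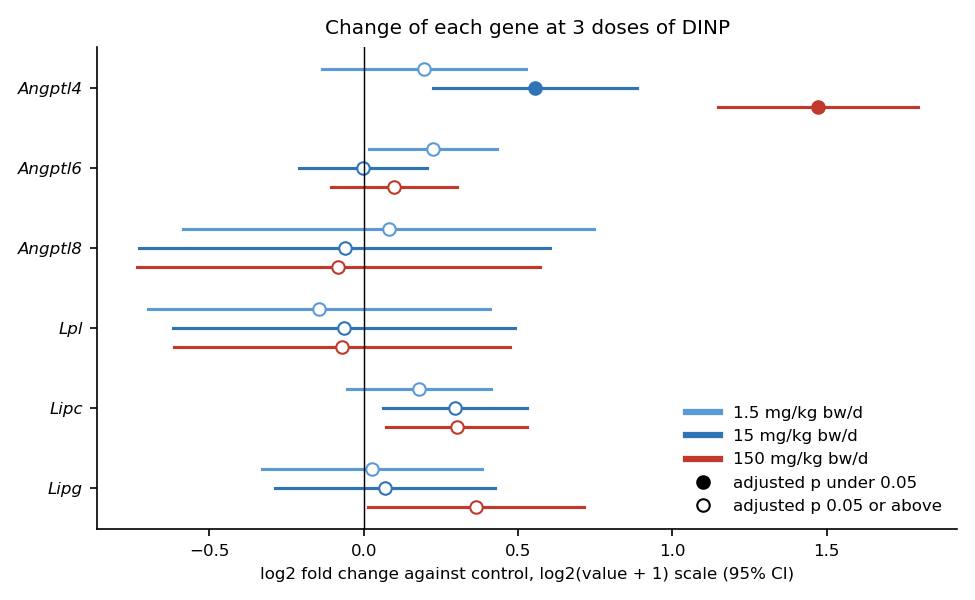
log2 fold change of each gene against control on the log2(value + 1) scale (horizontal axis) with its 95% confidence interval, for 3 doses of DINP. Filled points have an adjusted p under 0.05, which holds for Angptl4 at 15 (0.55) and 150 mg/kg bw/d (1.47) and for no other gene.

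Angptl4 is a classical target of PPARα, the receptor that governs fatty acid oxidation in hepatocytes, and 19 other targets were tested beside it. At the high dose 9 of the 19 were called higher and 0 lower, with a median log2FC of 0.45 against -0.01 over all entries. Leading members were the peroxisomal enzyme Ehhadh (log2FC 1.54, adjusted p = 1.13e-13), the acyl-CoA thioesterase Acot1 (1.54, adjusted p = 1.47e-06) and the fatty acid hydroxylase Cyp4a10 (1.76, adjusted p = 3.25e-06). The log2FC of Angptl4, 1.47, lay just below those of Cyp4a14, Cyp4a10, Ehhadh and Acot1 and above those of the other 15. When the 3 mice apart were left out, 8 of the 19 were called.

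At the middle dose 2 of the 19 (10.5%) were called higher and 1 (5.26%) lower, close to the 7.57% and 6.61% of all entries. Among the higher was Fabp1, the liver fatty acid binding protein (0.87, adjusted p = 0.00191), and the lower one was Acadm, a mitochondrial acyl-CoA dehydrogenase (-0.40, adjusted p = 0.0343). The median log2FC was 0.02. Ehhadh and Cyp4a10, with log2FC of 0.02 and 0.08, were close to control at the dose at which Angptl4 had 0.55. Acot1 had 0.42 there (SE 0.212, limma, adjusted p = 0.189) and was not called. Of the 19, 10 had a log2FC above 0 at this dose. Once the 3 mice apart were left out, 1 was called higher and 0 lower at the middle dose. None was called at the low dose, where the median was -0.08.

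**Figure D3:**
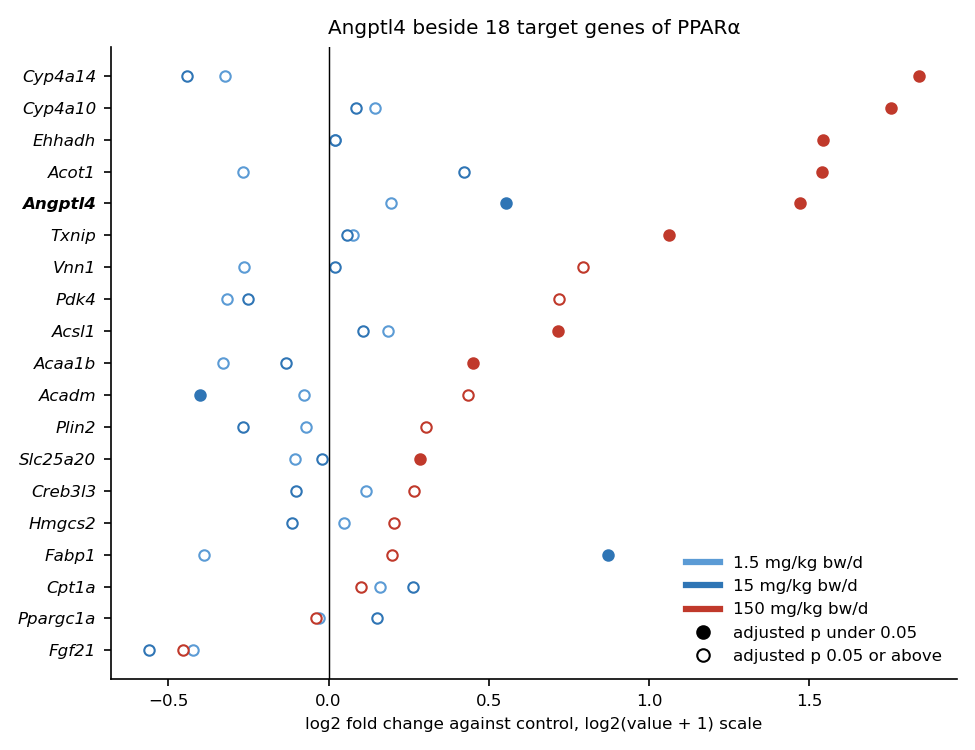
log2 fold change against control on the log2(value + 1) scale (horizontal axis) of Angptl4 and 18 other target genes of PPARα, sorted by the value at 150 mg/kg bw/d. Filled points have an adjusted p under 0.05. Angptl4 (bold) follows Cyp4a14, Cyp4a10, Ehhadh and Acot1 at the highest dose (1.47), and 8 of the other 18 genes have a filled point there.

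Angptl8 was not called at any dose. Its value was 29.0 to 229 in control mice (median 83.2), 22.4 to 258 at the low dose (median 97.6), 36.7 to 271 at the middle dose (median 89.5) and 24.2 to 249 at the high dose (median 82.5). Every group thus covered nearly the whole range, with coefficients of variation of 51.6% to 70.4%. The log2FC at the low, middle and high doses were 0.08, -0.06 and -0.08 (SE 0.332, 0.332 and 0.326, adjusted p = 0.958, 0.935 and 0.948), and without the 3 mice apart they were -0.08, -0.15 and -0.25 (adjusted p = 0.947, 0.837 and 0.823). With this spread the 95% confidence interval at the highest dose ran from -0.74 to 0.57, so that a change of the size seen for Angptl4 at the middle dose lies inside it. Of 13 genes that follow feeding and insulin in the liver, such as Srebf1 and Pck1, none was called at any dose against control, and their median log2FC were -0.0039, 0.06 and -0.14 at the 3 doses.

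Angptl6 was the steadiest of the angiopoietin-like genes. It ranged from 5.35 to 13.4 in control mice (median 8.55), from 8.38 to 14.6 at the low dose (median 9.86), from 5.32 to 11.7 at the middle dose (median 9.06) and from 7.38 to 12.4 at the high dose (median 9.61). The groups overlapped throughout. At the low dose 12 of 13 mice were above the control median, and the log2FC was 0.22 (SE 0.103, adjusted p = 0.354). Without the 3 mice apart, which had the 3 lowest values of Angptl6 in the whole table, it was 0.13 (adjusted p = 0.543). A value at this level is a small number of whole-number steps, and these mice also had the smallest steps (0.764, 0.883 and 0.886). The part of the scaling in their low values was not tested. At the middle and high doses the log2FC were -0.0031 and 0.10 (adjusted p = 0.989 and 0.724), or -0.04 and 0.0082 without those mice. Of the other family members listed, Angptl1, Angptl2 and Angptl7, 1 passed the filter on low values and was not called.

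Lpl was low in nearly all livers. Control mice ranged from 5.93 to 69.6 (median 7.06), the low-dose group from 4.05 to 18.8 (median 8.12), the middle-dose group from 5.10 to 63.8 (median 8.56) and the high-dose group from 5.91 to 15.0 (median 8.81). The control mean of 14.7 ± 19.1 (SD, n = 14) rested on replicates 8 and 9, and was 7.42 ± 1.29 in the other 12 control mice. With all mice the log2FC were -0.14, -0.06 and -0.07 at the low, middle and high doses (SE 0.276, 0.276 and 0.271, adjusted p = 0.896, 0.915 and 0.947). All turned positive without the 3 mice apart, to 0.26, 0.12 and 0.33 (SE 0.143, 0.146 and 0.141, adjusted p = 0.417, 0.672 and 0.257). Lpl was thus not called in either fit, and the sign of its difference was set by those mice. In the high-dose group 13 of 14 mice were above the control median.

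The 3 mice apart in Lpl also had high macrophage markers. The summed value of 6 markers of lipid-associated macrophages (Gpnmb, Trem2, Spp1, Cd9, Itgax and Mmp12) was 200 and 71.5 in control replicates 8 and 9 and 308 in replicate 7 of the middle-dose group. In the other 51 mice it was 9.41 to 76.2, with a median of 20.1. All 3 mice exceeded each of the 51 in Gpnmb, Trem2, Cd9, Itgax and Mmp12, and 2 of the 3 did so in Spp1. The summed Kupffer cell markers were 390, 425 and 293 in the 3 mice against 114 to 259 in the others. That sum was carried mostly by the complement genes C1qa (147 to 167 against at most 110 in the others) and C1qb and by Cd5l, and 4 of the 8 markers exceeded all others in 2 or 3 of the mice. Clec4f, at 16.0 to 23.7, lay inside the range of the others, and Vsig4 and Timd4, which mark resident Kupffer cells, were above all others in 0 and 1 of the 3. The summed stellate cell and fibroblast markers were 318, 295 and 315 against 123 to 275. That sum was carried mostly by Dcn (252, 247 and 265 against at most 232.5 in the others). Of its 7 markers, 3 exceeded all others in 2 or 3 of the mice and 2 in none. Summed hepatocyte markers were 21204 and 23508 in control replicate 8 and in replicate 7 of the middle-dose group, below the 28730 to 41036 of the others, and 31372 in control replicate 9. The part of these cells in the Lpl values was not tested. By dose, and without the 3 mice, the summed lipid-associated macrophage markers had medians of 20.1 in control mice and 16.9, 24.5 and 18.0 at the low, middle and high doses, and none of the 4 that were tested was called at any dose against control. Within the low-dose group the sum split, with 44.7 to 73.5 in 4 mice (replicates 4, 9, 10 and 13) and 10.2 to 21.6 in the other 9. The 4 also had the highest Lpl of their group, 11.6 to 18.8 against 4.05 to 9.53. Their size scalings (0.894, 0.896, 0.931 and 0.895) were the lowest of the low-dose group, where the next was 0.953. In other groups high sums and high Lpl did not always go together. At the middle dose, replicates 5 and 6 had sums of 76.2 and 41.7 with Lpl of 9.03 and 8.77. At the high dose, the highest Lpl values, 15.0 and 13.6 in replicates 7 and 3, came with sums of 16.0 and 9.41. Of the other liver marker lists, 1 of 9 hepatocyte markers (Fgb, -0.27, adjusted p = 0.0361) and 1 of 8 endothelial markers (Pecam1, -0.52, adjusted p = 0.000867) were called lower at the middle dose, where 6.61% of all entries were, and no Kupffer, stellate or fibroblast marker was called.

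**Figure D4:**
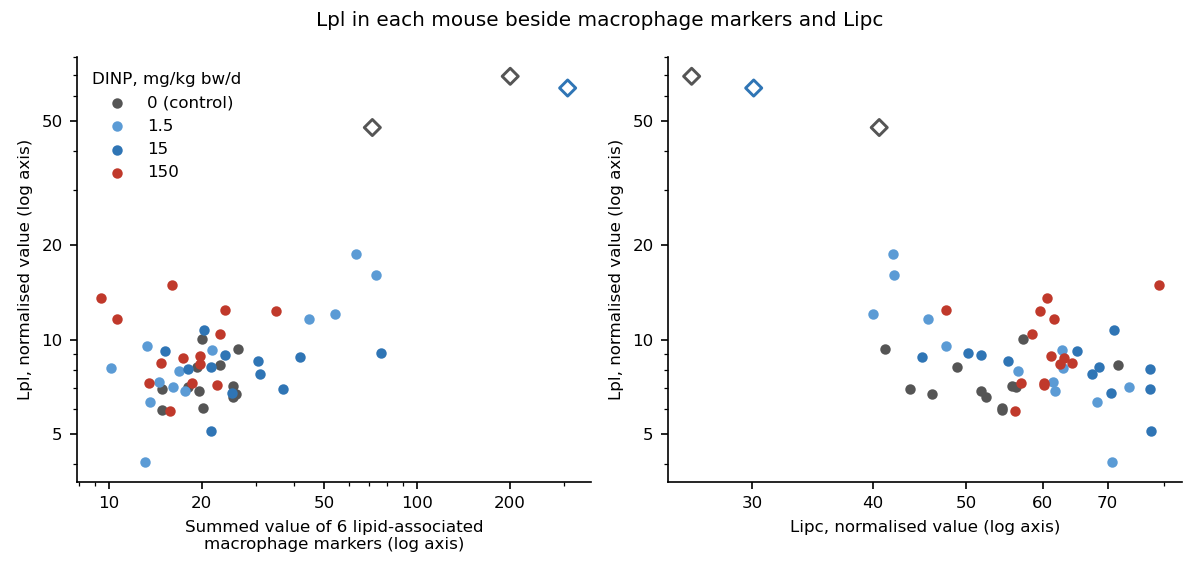
Lpl (vertical axis, log scale) in each of 54 mice against the summed value of 6 lipid-associated macrophage markers (left, log scale) and against Lipc (right, log scale), coloured by dose of DINP. Open diamonds are the 3 mice apart, with Lpl from 47.7 to 69.6 and marker sums from 71.5 to 308.

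Lipc, in contrast, was high and even. In control mice it ranged from 26.0 to 71.7 (median 52.1), at the low dose from 40.0 to 73.6 (median 61.5), at the middle dose from 30.1 to 77.6 (median 67.4) and at the high dose from 47.6 to 79.0 (median 60.4). At the high dose 13 of 14 mice were above the control median and at the middle dose 9 of 13, although the ranges overlapped at each dose. The means were 50.0 ± 10.5 in control mice and 56.6 ± 11.7, 62.1 ± 14.6 and 60.8 ± 6.64 at the low, middle and high doses (SD, n = 14, 13, 13 and 14). The log2FC were 0.18 at the low dose (SE 0.116, adjusted p = 0.559), 0.30 at the middle dose (SE 0.116, adjusted p = 0.0782) and 0.30 at the high dose (SE 0.114, adjusted p = 0.174). No dose was called with all mice in this fit, and the 95% confidence intervals at the middle and high doses were 0.06 to 0.53 and 0.07 to 0.53. Without the 3 mice apart the log2FC was 0.08 at the low dose (adjusted p = 0.760) and 0.21 at the high dose (adjusted p = 0.302). With all mice, a Wilcoxon rank-sum test called the high dose (adjusted p = 0.0393), and limma with array quality weights called the middle dose (0.36, adjusted p = 0.0144). In the unweighted fit the middle dose was also called without the 3 mice apart (0.28, adjusted p = 0.0498), without control replicate 1 alone (0.34, adjusted p = 0.0364) and without replicate 7 of its own group alone (0.38, adjusted p = 0.0114).

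Lipg, on the minus strand at chr18:74939322-74961263, was the lowest of the 6. It ranged from 0.764 to 5.61 in control mice (median 2.36), from 1.03 to 5.37 at the low dose (median 3.02), from 1.02 to 4.97 at the middle dose (median 3.07) and from 1.97 to 6.16 at the high dose (median 4.03). At the highest dose 12 of 14 mice were above the control median and 1 above every control mouse, and the log2FC was 0.36 (SE 0.174, adjusted p = 0.328), or 0.27 without the 3 mice apart (adjusted p = 0.532). At the low and middle doses it was 0.03 and 0.07 (adjusted p = 0.969 and 0.849), and -0.07 and 0.02 without them. A value at these levels is a few whole-number steps, and the ranges of all 4 groups overlapped.

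Of the 6 genes, 1 was therefore called at the middle and high doses and 0 at the low dose, beside the shares of all entries given above. Around them, 11 other lipases and lipid esterases were tested. None was called at the low or high dose. At the middle dose 3 (27.3%) were called higher and 1 (9.09%) lower, beside 7.57% and 6.61% of all entries. The 3 were the esterases Ces1f (log2FC 0.39, adjusted p = 0.00406), Aadac (0.43, adjusted p = 0.00964) and Ces1d (0.63, adjusted p = 0.0118). The lysosomal lipase Lipa was called lower (-0.71, adjusted p = 0.00845), with a mean of 81.3 in control mice and 49.8 at the middle dose. The median log2FC of the list was 0.01 at that dose.

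Genes that fold, anchor, activate or cleave the lipases and their regulators (16 tested) were called at the middle dose in both directions, 2 higher (12.5%) and 3 lower (18.8%) beside 7.57% and 6.61% of all entries. The lower ones were the lipoprotein ligand Apoe (-0.47, adjusted p = 1.36e-05), the heparan sulfate enzyme Ndst1 (-0.56, adjusted p = 0.000147) and the protease Furin, which cleaves lipases and angiopoietin-like proteins (-0.43, adjusted p = 0.01001). The higher ones were Apoc1, an apolipoprotein that inhibits lipolysis (0.37, adjusted p = 0.00607), and the LPL activator Apoa5 (0.32, adjusted p = 0.0210). At the low dose Sdc1, a heparan sulfate proteoglycan that binds remnant lipoproteins on hepatocytes, was called lower (-0.48, adjusted p = 0.0183), where 0.525% of all entries were. It is named because it was the only call at that dose. At the high dose none was called, against 1 lower without the 3 mice apart. At the middle dose 1 was called higher and 3 lower without those mice. Median log2FC were -0.08, -0.02 and -0.08.

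Among 9 tested genes of lipoprotein uptake, the remnant receptor Lrp1 was called higher at the middle (0.42, adjusted p = 0.0474) and high doses (0.60, adjusted p = 0.0142), with means of 24.3 in control mice, 34.1 and 37.8. Lsr, a receptor for triglyceride-rich particles, was called lower at the middle dose (-0.28, adjusted p = 0.0244). In each of these directions 1 of 9 genes was called (11.1%), beside 7.57% of all entries higher and 6.61% lower at the middle dose and 1.49% higher at the high dose. Without the 3 mice apart neither was called at the middle dose, and 1 gene was called higher at the high dose. Among 12 tested clock genes, 4 (33.3%) were called higher at the middle dose, beside 7.57% of all entries, and 0 at the other doses. They were Nr1d2 (0.42, adjusted p = 0.00158), Per3 (0.75, adjusted p = 0.00557), Usp2 (1.37, adjusted p = 0.00895) and Dbp (1.00, adjusted p = 0.0125), and the median of the list was 0.35 against -0.0010 over all entries. Without the 3 mice apart 3 were called. Their part in the Angptl4 value at this dose was not tested.

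1 relation between the 6 genes was found within groups, and it was lost without 4 mice. Over the 51 mice without those apart, with each value centred on its group mean, 1 of 15 pairs had an adjusted p under 0.05. This was Lpl with Lipc, with Pearson's r of -0.46 (permutation test with 100000 resamples, 2-sided, p = 0.00061, adjusted p = 0.00915) and Spearman's rho of -0.39 (p = 0.00458, adjusted p = 0.0687). Without the 2 mice farthest from the median of Lpl r was -0.35. No pooled r is given for all 54 mice, since the 3 mice apart form a cluster of their own. The 4 low-dose mice with raised macrophage markers had the highest Lpl of their group and also its 4 lowest Lipc values (40.0 to 45.6, against 47.7 to 73.6 in the other 9). They had the lowest size scalings of that group as well. The part of the scaling in the Lpl and Lipc values of these 4 mice was not tested. Without them, a choice made after seeing the data, r over the remaining 47 mice was -0.18 (permutation test, p = 0.224, adjusted p = 0.661 over 15 pairs) and rho -0.18 (p = 0.231, adjusted p = 0.735), and no pair passed the threshold. Mice were left out by their marker sum in the low-dose group alone. Middle-dose replicates 5 and 6, with sums of 76.2 and 41.7 and Lipc of 50.2 and 44.9, were kept. As the 4 low-dose mice form a cluster, no pooled r is given for the low dose. In its other 9 mice r was -0.65 (exact permutation test, 2-sided, p = 0.0301), rho -0.62 (exact permutation test, p = 0.0857), and r -0.43 without the 2 mice farthest from the median. In control mice r was 0.01 (n = 12, permutation test, adjusted p = 0.946 over 4 groups), at the middle dose -0.49 (n = 12, permutation test, adjusted p = 0.169) and at the high dose 0.24 (n = 14, permutation test, adjusted p = 0.563). The differences between groups were not tested.

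The genes whose pattern was most like that of each member were taken as the 5 entries with the highest r over the 54 mice, centred on group means. These values are a description. For Angptl4 they were Rfesd, Ngrn, Pdp2, Rab3ip and Gm43189, with r of 0.53 to 0.58. Without centring, r also takes in the differences between the dose groups. The nearest entries then included Acot1 (0.75), Pdp2 (0.75), Ehhadh (0.72) and the carnitine transporter Slc22a5 (0.71). Acot1 and Ehhadh are among the targets called at the high dose above. Pdp2, a phosphatase that activates pyruvate dehydrogenase, stood in both sets.

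For Angptl8 the nearest included the transcriptional repressor Bhlhe40 (0.61), the glycogen-targeting subunits Ppp1r3b (0.57) and Ppp1r3c (0.54), and Acbd4 (0.57), and for Angptl6 Nxpe2, Cebpa, Zcchc24, Cd163 and Met (0.58 to 0.61). The values for Angptl6 leaned on the 3 mice apart and were 0.33 to 0.47 without them. For Lpl the nearest were Sox4, the macrophage genes Ctss, Mmp12 and Lgals3, and Tmem176b, with r of 0.85 to 0.88 over all mice and 0.60 to 0.68 without the 3 mice apart. For Lipc they were the hepatocyte genes Cyp2c54 (0.88), Nat8f1 (0.87), Mug1 (0.83) and Mup3 (0.82), and Pigr (0.83), and these held at 0.71 to 0.79 without those mice. For Lipg they were G6pc1, the glucose 6-phosphatase of gluconeogenesis (0.60), the lipolysis inhibitor G0s2 (0.60), Acot3 (0.56), Mfsd2a (0.54) and Ddhd2 (0.53).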

How the data were processed

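Liver RNA of 54 mice was sequenced with QuantSeq 3′ libraries. Read processing by the authors used the nf-core/rnaseq pipeline with Salmon, RSEM and STAR against GRCm38. The deposited values are a signal, read from the table's name and values as TPM that the authors rounded to whole numbers and divided by a size factor per sample (steps of 0.764 to 1.11, whole numbers summing to 948342 to 980641). On this reading sequencing depth cannot be recovered, and no test for counts was run. Groups came from the labels. The test was limma 3.58.1 in R 4.3.3 (lmFit, eBayes with a trend) on log2(value + 1), 4 groups in 1 fit, over the 11431 of 20162 entries with a mean of at least 1, with Benjamini-Hochberg adjustment over these. The script was tested on simulated data. The genes, gene lists and marker lists were chosen with earlier results of these data known. Genes were named by rule: the 6 genes, the 5 entries most like each, and of each list up to 4 called genes with the lowest adjusted p. Lower-ranked genes named beyond it (Sdc1, Apoa5, Fabp1, Acadm and Cyp4a14) were chosen after their values were seen. Correlations used 100000 permutations. The replicate numbers do not pair mice: over 79 pairs of samples sharing a number, deviations from group means had a mean r of -0.00 (-0.36 to 0.24). Some genes that the rule names or the lists hold are not reported here, so the plot of PPARα targets draws 18 of the 19.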

Additional observations from a re-analysis of the deposited data

How the results depend on the processing

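Angptl4 at the high dose kept its call in all 12 alternatives (log2FC 1.10 to 1.60) and with each mouse left out (1.39 to 1.55). The number of the 6 genes called at the middle dose was 1, against 2 with array quality weights (Lipc joined, 0.36, adjusted p = 0.0144), 0 in the Wilcoxon test, and 1 to 2 with each mouse left out. At the high dose it was 2 in the Wilcoxon test (Lipc, adjusted p = 0.0393). Between the middle and low doses it was 1 instead of 0 with values scaled to a sum of 1000000 (Angptl6), and 0 to 1 with each mouse left out, since Angptl4 was called without replicate 8 of the middle-dose group (log2FC 0.44, adjusted p = 0.0484). The other causes were not tested. The number of correlated pairs was 3 of 15 over all 54 mice, 5 without centring, 1 with values scaled to a sum of 1000000, 1 without the 3 mice apart, and 0 when the 4 low-dose mice with raised macrophage markers were left out as well, where r of Angptl6 with Lipc turned to -0.11.

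Several log2FC changed sign, and not all of these stayed near 0. With array quality weights Angptl8 (-0.036), Lipg (-0.0243) and Lpl (0.0461) did so at the low dose, Lipg (-0.00041) and Lpl (0.0176) at the middle dose and Lpl (0.0977) at the high dose. Without the 3 mice apart, an alternative chosen after seeing the data, Angptl8 (-0.0839), Lipg (-0.0658) and Lpl (0.26) did so at the low dose and Lpl at the middle (0.12) and high doses (0.33). Angptl6 at the middle dose was 0.000355 with quantile normalization and 0.0127 with the replicate number as a block. With each mouse left out the ranges that crossed 0 were, at the low dose, -0.0414 to 0.25 for Angptl8, -0.0558 to 0.10 for Lipg and -0.23 to 0.0622 for Lpl. At the middle dose they were -0.0514 to 0.0496 for Angptl6, -0.20 to 0.0422 for Angptl8, -0.0153 to 0.15 for Lipg and -0.28 to 0.14 for Lpl, and at the high dose -0.20 to 0.0524 for Angptl8 and -0.12 to 0.14 for Lpl. The replicate block changed no call of the 6 genes, and with it Angptl4 at the middle dose was 0.54 (adjusted p = 0.0341). Lipg has no value under a minimum mean of 5, since it is below it. The values hold no depth, so how far counting error limits the low genes, Lipg above all, is unknown.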
